A study of Mus musculus with 9 samples.

Results

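The transcripts of 10 AP-1 and immediate early genes were followed in mouse ear tissue: the FOS family (Fos, Fosb, Fosl1, Fosl2), the JUN family (Jun, Junb, Jund), the immediate early regulators Egr1 and Atf3, and the phosphatase gene Dusp1. They were chosen by symbol, and all 10 matched 1 gene each among 55401 features of the deposited count matrix and passed the filter on low counts. The RNA came from ears of C57 mice in 9 libraries. In 3 libraries MC903 was combined with paeonol at 200 mg/kg, 3 libraries had MC903 alone, and 3 controls had absolute ethyl alcohol. MC903 is calcipotriol, a vitamin D analogue that is applied to mouse skin to model atopic dermatitis, and paeonol is a phenolic compound of peony root bark. No allele, transgene or age is named for any group, no group had paeonol alone, and no vehicle of paeonol is named for the other groups. Whether each library is a separate mouse is not given, so p-values measure the spread between these libraries, which may be technical.

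AP-1 is a dimer of basic leucine zipper proteins, usually a FOS protein paired with a JUN protein, that binds DNA at a short palindrome. Growth factors, cytokines and stress activate the MAP kinases ERK, JNK and p38, and these kinases switch on FOS, JUN and EGR genes within minutes without new protein synthesis. JUN and FOS are strong activators, JUNB and JUND are weaker and often oppose JUN, and FOSL1 and FOSL2 lack the potent activation region of FOS. In the epidermis, AP-1 regulates keratinocyte proliferation, differentiation and inflammatory output.

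Proximal promoters are shown for 4 genes whose transcripts changed in MC903 ears: Fos, Fosl2, Junb and Dusp1. The RefSeq table (GRCm38.p6) held a promoter for 8 of the 10 members, and Fosl1 and Egr1 were not matched. Each sequence runs 5′ to 3′ over the 250 bases before the transcription start, with capitals at the motifs found, of which the Junb stretch has none.
Fos (chr12:85473640-85473889, plus strand): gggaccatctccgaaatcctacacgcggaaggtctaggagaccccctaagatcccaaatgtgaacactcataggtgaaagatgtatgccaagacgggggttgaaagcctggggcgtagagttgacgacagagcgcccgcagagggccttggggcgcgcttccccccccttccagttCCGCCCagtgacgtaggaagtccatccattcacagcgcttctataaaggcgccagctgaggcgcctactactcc
Fosl2 (chr5:32136222-32136471, plus strand): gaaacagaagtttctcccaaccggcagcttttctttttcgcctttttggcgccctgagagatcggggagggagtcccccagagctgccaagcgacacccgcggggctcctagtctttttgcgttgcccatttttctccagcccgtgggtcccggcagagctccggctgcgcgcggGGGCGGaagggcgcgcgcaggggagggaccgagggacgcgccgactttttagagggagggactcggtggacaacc
Junb (chr8:84978749-84978998, minus strand): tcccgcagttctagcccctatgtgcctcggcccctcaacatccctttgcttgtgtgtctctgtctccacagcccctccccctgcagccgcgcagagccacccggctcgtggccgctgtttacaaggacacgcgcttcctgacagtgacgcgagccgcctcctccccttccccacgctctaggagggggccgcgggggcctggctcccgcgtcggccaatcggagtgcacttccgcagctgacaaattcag
Dusp1 (chr17:26508473-26508722, minus strand): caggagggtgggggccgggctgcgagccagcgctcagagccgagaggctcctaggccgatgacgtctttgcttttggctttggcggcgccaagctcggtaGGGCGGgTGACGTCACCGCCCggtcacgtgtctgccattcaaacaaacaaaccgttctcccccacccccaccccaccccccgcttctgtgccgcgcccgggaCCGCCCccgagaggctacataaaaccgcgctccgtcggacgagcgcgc
Motifs were searched on both strands in windows of 250 bases before and 50 after each start, and overlapping matches were allowed. The cAMP response element TGACGTCA was found in 1 of the 8 members, Dusp1, from -143 to -136 relative to the start, and in 1.79% of all 32851 promoters of that length. The GC box GGGCGG was found in 6 of 8 members, against 35.7% of all promoters, and Junb and Jund held none. The Jund window (chr8:70697489-70697788, plus strand) ends before the annotated Jund gene begins at 70698949. Its lack of motifs therefore does not describe the stretch next to that gene start. The Fosl2, Atf3 and Dusp1 windows lie inside the annotated genes, so they adjoin RefSeq starts and not the outer gene starts. The AP-1 motif TGANTCA and the CArG box, the core of serum response elements, were found in 0 of 8 members, against 7.81% and 1.63% of all promoters. These counts describe letters in 1 window and say nothing of binding.

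Library totals were 54.26 to 57.75 M estimated counts. A single edgeR quasi-likelihood fit covered 21925 genes in all 9 libraries, and called genes are those whose p, adjusted by Benjamini-Hochberg over all of them, was under 0.05. Levels are given as CPM, which stands for counts scaled to a common library size, here after TMM scaling, and changes are on the log2 scale with a standard error. Keratinocyte markers (Krt5, Krt14, Krt1, Krt10) summed to 38700 to 42200 CPM with paeonol, 23300 to 29500 CPM in MC903 and 14900 to 17100 CPM in control ears. The 4 did not move alike. In MC903 versus control, Krt14 and Krt1 were called higher (2.47-fold and 4.09-fold) and Krt5 lower (log2 -0.20, a call that ended without control library 1 or 3 or MC903 library 1 or 3). Krt14 was called lower (log2 -0.44) and Krt10 and Krt5 higher (log2 2.57 and 0.44) with paeonol against MC903, with Krt10 at 16100 CPM with paeonol and 2710 CPM in MC903. In these tissue libraries, fewer cells of a type and less RNA per cell cannot be told apart. Under scaling by library totals alone, all genes together had a median log2 change of -0.205 in MC903 versus control, against -0.0155 with TMM. The split of calls became 3402 higher and 7224 lower, against 5044 and 5215. In MC903 with paeonol versus control it became 2155 higher and 5354 lower, against 3578 and 3187.

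In MC903 versus control ears, FOS and JUN family transcripts moved apart by subunit. Fosl1 was 13.0-fold higher, Fos 6.53-fold, Junb 2.69-fold and Fosl2 2.29-fold, while Jund was 0.697 times its control level. Egr1, the zinc-finger regulator, and Dusp1, which inactivates MAP kinases, rose too. In all, 6 of 10 members were called higher and 1 lower, beside 23.0% and 23.8% of all genes tested (46.8% in either direction). The median log2 change of the 10 members was 0.747, against -0.0155 over all genes. Jun, Fosb and Atf3 were not called.

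In MC903 with paeonol versus MC903 ears, Fosl1, Fos, Dusp1 and Fosl2 were lower and Jund was higher. Fosl1 stood at 0.196, Fos at 0.324, Dusp1 at 0.600 and Fosl2 at 0.671 times the MC903 level, and Jund was 1.5-fold higher. Thus 4 of 10 members were called lower and 1 higher, beside 14.3% and 15.3% of all genes (29.7% in either direction). The median log2 change of the members was -0.384, against 0.0024 over all genes. Junb, Jun, Fosb, Egr1 and Atf3 were not called.

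In MC903 with paeonol versus control ears, 4 of 10 members were called higher and 0 lower, beside 16.3% and 14.5% of all genes (30.9% in either direction). DESeq2 called 5 members higher and 0 lower, and by edgeR 0 members were lower at an unadjusted p under 0.05. The 4 were Egr1, Junb, Fosl2 and Jun, at 2.11, 2.07, 1.54 and 1.29 times control. Dusp1 and Jund had log2 changes of -0.05 ± 0.13 and 0.07 ± 0.07. The comparisons share libraries with each other, so their values are set side by side and not counted as separate support.

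**Figure D1:**
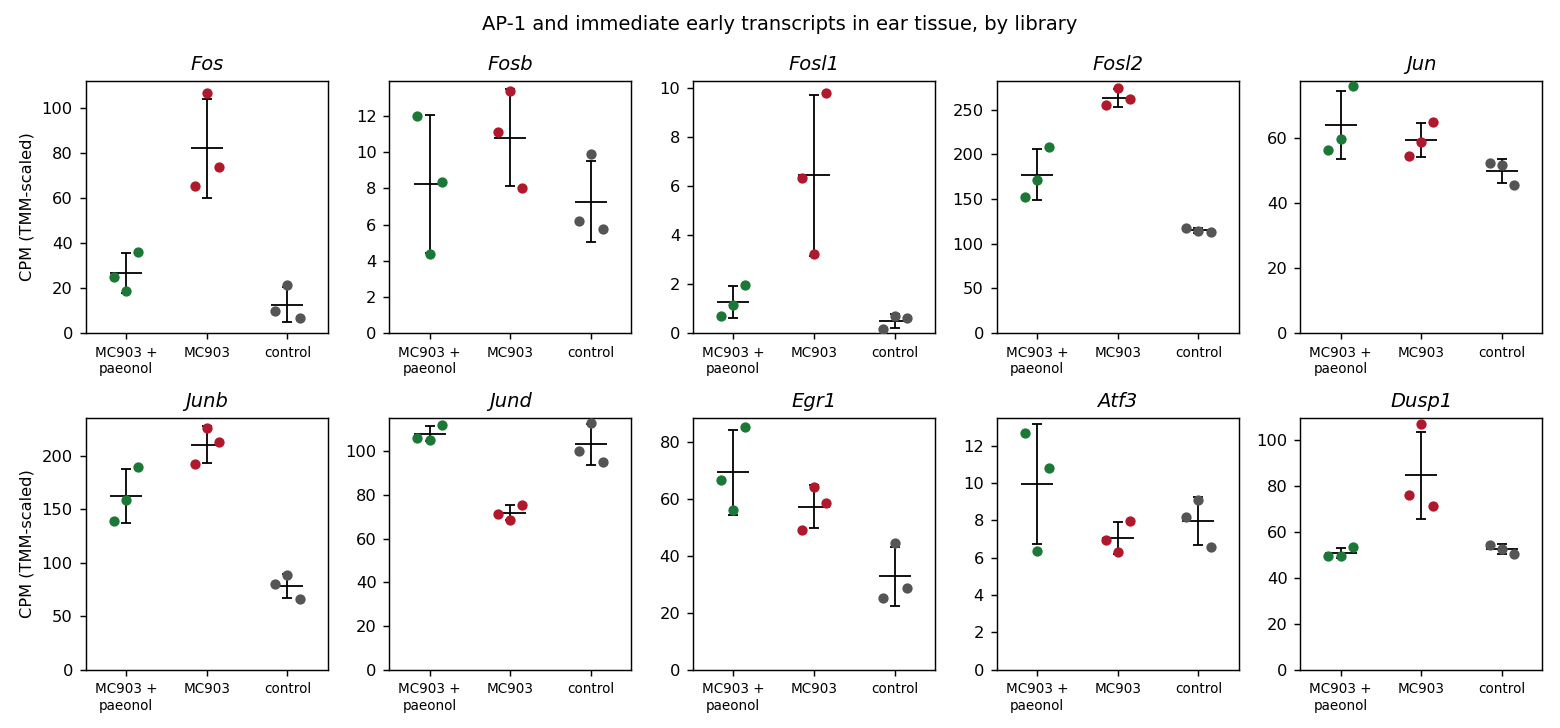
Level of each of the 10 transcripts in CPM (linear axis from 0) in MC903 with paeonol, MC903 and control ears; each point is 1 library and the bars give mean ± SD (n = 3). Fos, Fosl1, Fosl2, Junb and Dusp1 are highest in the 3 MC903 libraries, and Jund is lowest there. With paeonol, Egr1, Junb, Fosl2, Jun and, barely, Fosl1 stay above every control library.

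Fos, the prototype immediate early gene (chromosome 12, 85473890 to 85477273, plus strand, GRCm38), had 25.1, 18.8 and 36.1 CPM in the paeonol libraries, 65.5, 107 and 73.9 CPM in the MC903 libraries and 9.83, 21.3 and 6.61 CPM in the controls. All MC903 libraries lay above the other 6, and the lowest paeonol library lay below control library 2. MC903 against control gave a log2 change of 2.71 ± 0.49 (edgeR adjusted p = 0.00379). Control library 2 carried the highest control value, and without it the log2 change was 3.32 (edgeR adjusted p = 0.000699), with 0.019 the highest adjusted p over all alternatives. With paeonol, Fos changed by -1.62 ± 0.47 against MC903 (edgeR adjusted p = 0.0421). That call ended without any single MC903 library, any single paeonol library or control library 1, with edgeR adjusted p between 0.0586 and 0.128 and log2 changes from -1.90 to -1.39. It also ended without the expression filter (0.0768). Against control the paeonol libraries had a log2 change of 1.08 ± 0.48, which was not called (edgeR adjusted p = 0.141). Without control library 2 it was 1.70 and was called (edgeR adjusted p = 0.0189, and up to 0.359 over all alternatives).

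Fosl1, which encodes the FOS-related protein most tied to epithelial wound repair and invasion (chromosome 19, 5447547 to 5455946, plus strand), had the lowest level per kilobase of exon of all members in control ears. It had 0.707, 1.13 and 1.97 CPM in the paeonol libraries, 6.32, 3.22 and 9.82 CPM in MC903 and 0.176, 0.705 and 0.608 CPM in control. The 3 MC903 libraries lay above the other 6, although they differed among themselves. The control libraries held 11, 43 and 36 estimated counts, so the size of the rise is imprecise. Its log2 change was 3.70 ± 0.61 in MC903 versus control (edgeR adjusted p = 0.000716) and -2.35 ± 0.56 in MC903 with paeonol versus MC903 (edgeR adjusted p = 0.0114). The second call ended without paeonol library 2, at an edgeR adjusted p of 0.0508. Against control the paeonol libraries had a log2 change of 1.35 ± 0.59, not called by edgeR (adjusted p = 0.115) and called by DESeq2 (adjusted p = 0.0338, with 0.36 the highest over the alternatives). Ccdc85b lies on the opposite strand over 57.2% of the exonic bases of Fosl1. The strand setting of the counting is unknown here, so reads of both genes cannot be told apart. Ccdc85b itself averaged 18.5 CPM with paeonol, 25.4 CPM in MC903 and 20.0 CPM in control.

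Fosl2, a FOS-related subunit expressed throughout the epidermis (chromosome 5, 32135801 to 32157842, plus strand), rose in MC903 ears and stood between both other groups with paeonol. It had 152, 171 and 208 CPM in the paeonol libraries, 255, 274 and 262 CPM in MC903 and 118, 114 and 113 CPM in control. The 3 groups did not overlap. Its log2 change was 1.20 ± 0.10 in MC903 versus control (edgeR adjusted p = 2.53e-06), -0.58 ± 0.10 in MC903 with paeonol versus MC903 (edgeR adjusted p = 0.000918) and 0.62 ± 0.10 in MC903 with paeonol versus control (edgeR adjusted p = 0.000656). These 3 calls held under every alternative tried.

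Fosb, the remaining FOS subunit (chromosome 7, 19302696 to 19310051, minus strand), had 12, 4.39 and 8.38 CPM with paeonol, 11.1, 13.4 and 8.02 CPM in MC903 and 6.18, 9.88 and 5.76 CPM in control. The 3 groups overlapped. None of its changes was called by edgeR or DESeq2, with log2 values of 0.57 ± 0.36 in MC903 versus control, -0.39 ± 0.36 in MC903 with paeonol versus MC903 and 0.18 ± 0.36 in MC903 with paeonol versus control.

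Junb, a JUN subunit that restrains proliferation and inflammation in mouse epidermis (chromosome 8, 84974484 to 84978718, minus strand), had 139, 158 and 189 CPM with paeonol, 192, 226 and 213 CPM in MC903 and 80.0, 88.6 and 65.9 CPM in control. The groups did not overlap, but paeonol library 3 came within a few CPM of MC903 library 1. MC903 against control gave 1.43 ± 0.13 (edgeR adjusted p = 1.35e-05), and MC903 with paeonol against control 1.05 ± 0.13 (edgeR adjusted p = 0.000309). MC903 with paeonol against MC903 gave -0.38 ± 0.13 with an edgeR adjusted p of 0.0521, just past the threshold. It was called by DESeq2 (adjusted p = 0.018), in the fit of 2 groups (edgeR adjusted p = 0.039), and without paeonol library 3 (0.0118), control library 2 (0.0402) or control library 3 (0.0277). The call also appeared with a mean CPM of at least 1 and with counts divided by 4. Over all alternatives the adjusted p of this change reached 0.169. Prdx2, on the opposite strand, shares 7.52% of the exonic bases of Junb and had a log2 change of 0.60 with paeonol against MC903.

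Jund, the JUN subunit that resting cells express most steadily (chromosome 8, 70698949 to 70700616, plus strand), ran opposite to Junb and Fosl2. It had 106, 105 and 112 CPM with paeonol, 71.3, 68.5 and 75.3 CPM in MC903 and 100, 113 and 95.2 CPM in control. The MC903 libraries all lay below the other 6, and the paeonol and control libraries overlapped. The log2 change was -0.52 ± 0.07 in MC903 versus control (edgeR adjusted p = 0.000116) and 0.59 ± 0.07 in MC903 with paeonol versus MC903 (edgeR adjusted p = 0.000133). Both calls held under every alternative. The antisense feature Gm11175 covers 52.6% of the exonic bases of Jund, and averaged at most 0.0688 CPM in any group.

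Jun, the subunit that forms the strongest activating dimers with FOS (chromosome 4, 95049034 to 95052222, minus strand), differed little. It had 56.5, 59.9 and 76.1 CPM with paeonol, 54.5, 58.7 and 65.0 CPM in MC903 and 52.4, 51.8 and 45.5 CPM in control. Every MC903 and paeonol library lay above every control, by a small margin. The log2 change was 0.25 ± 0.11 in MC903 versus control (edgeR adjusted p = 0.089), called without paeonol library 3 (0.0279) and in the fit of 2 groups (0.0368), with adjusted p up to 0.675 over the alternatives. MC903 with paeonol versus MC903 gave 0.11 ± 0.11 (edgeR adjusted p = 0.508). The call against control, 0.36 ± 0.11 (edgeR adjusted p = 0.0292), ended without control library 2 (0.055), control library 3 (0.111) or paeonol library 3 (0.109), and under library totals (0.18).

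Egr1, an early growth response zinc-finger factor that ERK signalling induces (chromosome 18, 34859823 to 34864984, plus strand), had 66.6, 55.9 and 85.2 CPM with paeonol, 48.9, 64.1 and 58.5 CPM in MC903 and 25.3, 44.5 and 28.5 CPM in control. All 6 libraries with MC903 lay above the 3 controls, and the paeonol and MC903 libraries overlapped. Its log2 change with paeonol against control was 1.08 ± 0.24 (edgeR adjusted p = 0.0109), and it was called under every alternative. The change in MC903 versus control was 0.80 ± 0.24 (edgeR adjusted p = 0.0249). That call ended without control library 1 (0.0705), control library 3 (0.0844), MC903 library 2 (0.0759) or MC903 library 3 (0.0676), without the expression filter (0.0585) and under library totals (0.0611), all as edgeR adjusted p. Paeonol with MC903 against MC903 gave 0.28 ± 0.24 (edgeR adjusted p = 0.447).

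Dusp1, a nuclear phosphatase that inactivates p38, JNK and ERK and is itself an immediate early and glucocorticoid-induced gene (chromosome 17, 26505590 to 26562128, minus strand), had 49.6, 49.6 and 53.6 CPM with paeonol, 76.4, 107 and 71.4 CPM in MC903 and 54.6, 52.6 and 50.4 CPM in control. The MC903 libraries all lay above the other 6, which overlapped. The log2 change was 0.69 ± 0.13 in MC903 versus control (edgeR adjusted p = 0.00112) and -0.74 ± 0.13 in MC903 with paeonol versus MC903 (edgeR adjusted p = 0.00151), and both calls held under every alternative. Atf3, a stress-induced zipper protein that often represses its targets (chromosome 1, 191170296 to 191218039, minus strand), had 12.7, 6.38 and 10.8 CPM with paeonol, 6.93, 6.28 and 7.99 CPM in MC903 and 8.19, 9.10 and 6.59 CPM in control. Its groups overlapped and none of its 3 changes was called in the main fit. With paeonol against MC903 it had 0.49 ± 0.23 (edgeR adjusted p = 0.139), and 0.73 without paeonol library 2, which was called (edgeR adjusted p = 0.0172, against up to 0.446 over the alternatives).

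**Figure D2:**
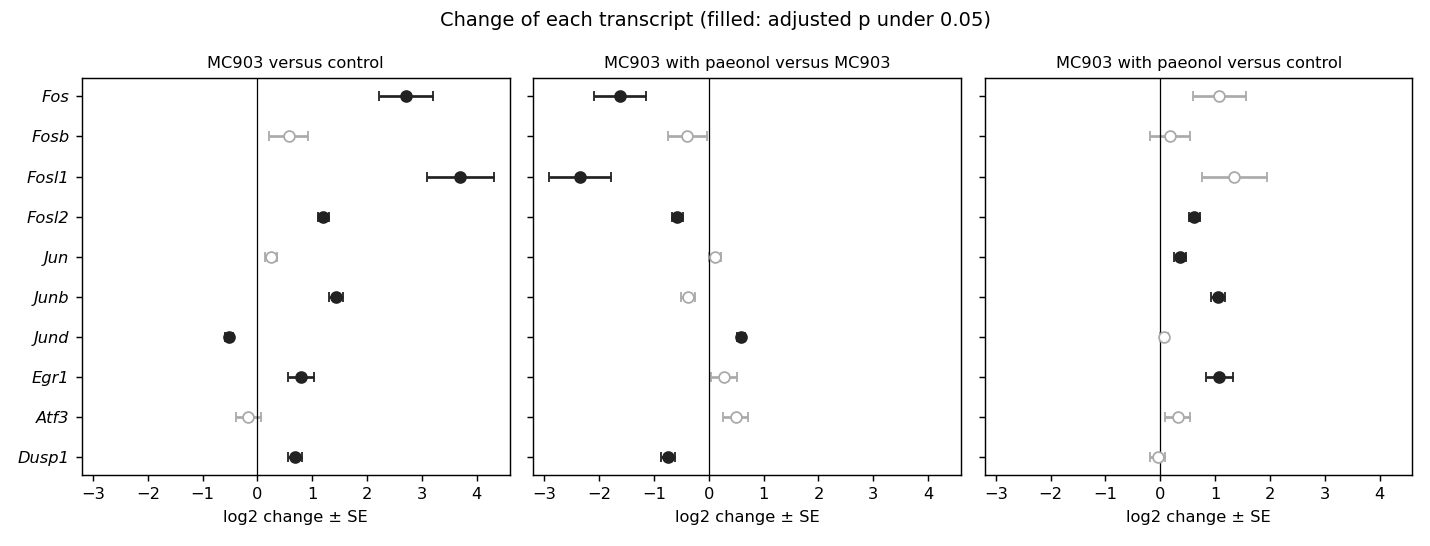
Log2 change with its standard error for each member in MC903 versus control, MC903 with paeonol versus MC903 and MC903 with paeonol versus control; filled points were called at an adjusted p under 0.05. Fosl1 has the largest rise of the 10 in MC903 (3.70) and Jund is the only one called lower there (-0.52); with paeonol against MC903 the Jund point is at 0.59 while Fos is at -1.62.

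Within each family the balance of transcripts differed between groups. Levels were divided by exon length to compare genes, and each share is of the summed CPM per kilobase of the family. Fos made up 37.3%, 29.7% and 39.2% of FOS family transcripts with paeonol, 47.2%, 58.7% and 48.6% in MC903, and 24.0%, 39.8% and 17.9% in control. Fosl2 made up 54.7%, 65.6% and 54.9% with paeonol, 44.6%, 36.5% and 41.9% in MC903 and 69.9%, 51.7% and 74.3% in control. The Fos share in MC903 lay above, and the Fosl2 share below, those of the other 6 libraries. Which of both genes led depends on the length used: by coding length, which leaves out the long untranslated part of Fosl2, Fos averaged 10.8% with paeonol, 19.8% in MC903 and 7.90% in control, and Fosl2 84.6%, 75.0% and 86.4% in the same order. Fosl1 averaged 1.92% ± 0.646 with paeonol, 4.93% ± 2.74 in MC903 and 1.31% ± 0.728 in control (SD, n = 3 each), and Fosb 4.25% ± 2.17, 2.59% ± 0.533 and 6.17% ± 0.689 in the same order.

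In the JUN family, Junb and Jund exchanged places. Junb held 45.2% ± 2.47 of the family with paeonol, 59.7% ± 2.27 in MC903 and 30.4% ± 1.55 in control, and Jund 41.8% ± 3.10, 28.1% ± 1.94 and 55.5% ± 1.54 in the same order (SD, n = 3 each). Neither gene's shares overlapped between any of the 3 groups. By coding length Junb also led in MC903, at 61.1% against 21.1% for Jund, and Jund in control, at 44.5% against 33.4% for Junb. With paeonol, coding length put Junb at 48% ± 2.05 and Jund at 32.5% ± 2.73, a wider gap than by exon length. Jun held 12.9% ± 0.757 with paeonol, 12.2% ± 0.641 in MC903 and 14.1% ± 0.766 in control. The summed JUN level was 155 ± 16.1 CPM per kilobase with paeonol, 153 ± 8.48 in MC903 and 111 ± 11.3 in control, and the summed FOS level 31.5 ± 6.62, 67.0 ± 9.51 and 18.6 ± 3.66. Each share or sum that did not overlap between a pair of groups had an exact two-sided permutation p of 0.1, the smallest that 3 libraries against 3 can give, so these tests cannot pass 0.05.

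**Figure D3:**
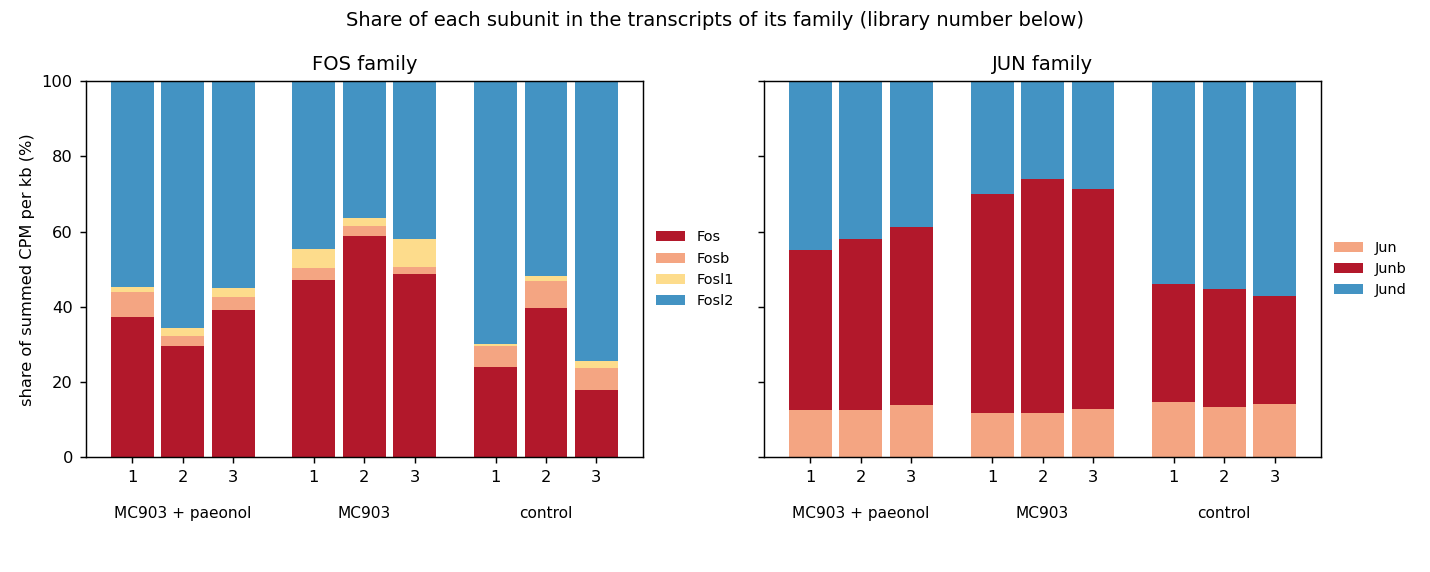
Share of each subunit in the summed CPM per kilobase of the FOS family and the JUN family, 1 bar per library, in MC903 with paeonol, MC903 and control ears. By exon length Fos exceeds Fosl2 in the MC903 libraries, an order that turns by coding length, and Junb exceeds Jund; in the controls Fosl2 exceeds Fos and Jund exceeds Junb in all 3 libraries.

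Per kilobase of exon, Junb was the most abundant member in MC903 ears, at 91.4 ± 7.49 CPM per kilobase (SD, n = 3), and Jund followed at 43.0 ± 2.07. Fos came next at 34.9 ± 9.37, within its spread of Fosl2 at 27.2 ± 0.997 and of Dusp1 at 25.6 ± 5.75. Jun at 18.6 ± 1.66 and Egr1 at 12.7 ± 1.71 came below them, and Atf3, Fosl1 and Fosb averaged 3.28, 3.17 and 1.74 CPM per kilobase. In control ears Jund led at 61.7 ± 5.54, ahead of Junb at 34.0 ± 4.97, and Fos at 5.35 ± 3.29 stood below Egr1 at 7.31 ± 2.29 by less than the spread. With paeonol, Junb at 70.4 ± 11 and Jund at 64.6 ± 2.09 differed by less than the spread of Junb. These ranks hold for exon length only, which is 9680 bases for Fosl2. Before division by length, Fosl2 had the highest mean CPM of the 10 members in each group. Its coding length (978 bases) is shorter than that of Junb (1032) or Jund (1023), so by coding length Fosl2 would stand above both.

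The members differed in how far libraries of a group lay apart. The pooled within-group SD of log2 CPM was 0.85 for Fosl1, 0.60 for Fos and 0.53 for Fosb, higher than in 88.4%, 80.6% and 77.3% of the genes tested. Jund varied least, with an SD of 0.09, and Fosl2 and Jun had 0.14 and 0.16, against a median of 0.21 over all genes. The libraries were not alike in this. Paeonol library 3 held the highest value of its group for 8 of the 10 members, control library 2 for 7 and MC903 library 2 for 6, while over all genes tested these libraries were the highest of their group for 35.3%, 34.7% and 32.1%. Control library 3 was the lowest control for 8 members, against 33.1% of all genes.

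Most other immediate early genes rose in MC903 ears. Of 34 tested, 25 were called higher and 2 lower in MC903 versus control, beside 23.0% and 23.8% of all genes, with a median log2 change of 0.736. Under library totals 20 were higher and 2 lower, with a median of 0.546 against -0.205 over all genes. The growth regulator Myc rose by 1.29 ± 0.10, Gadd45b by 1.44 ± 0.09, Ier3 by 1.38 ± 0.15, the orphan receptor Nr4a1 by 1.25 ± 0.20 and Zfp36, which destabilises cytokine mRNAs, by 1.03 ± 0.14. Egr3 averaged 180 ± 42.5 CPM with paeonol, 204 ± 14.1 CPM in MC903 and 95.9 ± 4.66 CPM in control. Egr2, a relative of Egr1 that also marks Schwann cells and hair follicles, went the other way, at 34.2 ± 2.09 CPM with paeonol, 9.88 ± 1.67 CPM in MC903 and 38.3 ± 2.08 CPM in control. Sik1, a salt-inducible kinase gene singled out after its values were seen, was the other lower gene, at -0.72 ± 0.11. Btg2 was not called in MC903 versus control. Klf4 was called there at 0.37 ± 0.13, but not without control library 2 or 3, MC903 library 1 or 2, or any paeonol library (edgeR adjusted p between 0.0501 and 0.127). The Klf4 call also ended without the expression filter (0.0658), in the fit of 2 groups (0.0781) and under library totals, where its log2 change was 0.18 (0.277). Of the Schwann cell markers, 2 of 3 were called lower in MC903 versus control. With paeonol against MC903, 2 were higher and 1 lower, beside 15.3% and 14.3% of all genes. The part of these markers in the Egr2 values was not tested.

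With paeonol against MC903, 19 of the 34 were called lower and 1, Egr2, higher, beside 14.3% and 15.3% of all genes, with a median of -0.596. Nr4a1 fell by 1.57 ± 0.20 on the log2 scale, Gadd45b by 0.75 ± 0.09 and Myc by 0.50 ± 0.10, and Ier3 by 0.61 ± 0.15. The Ier3 call ended without paeonol library 1 (edgeR adjusted p = 0.051) or 2 (0.0514). Without paeonol library 1 the list had 12 called lower. Ier2, Egr3 and Klf6 were not called, at -0.04 ± 0.12, -0.18 ± 0.14 and -0.16 ± 0.09. Zfp36, at -0.33 ± 0.14, was not called either. Without paeonol library 3, Egr3 and Zfp36 were called lower (edgeR adjusted p = 0.00666 and 0.0065). With paeonol against control, 17 were called higher and 4 lower, beside 16.3% and 14.5% of all genes. Over the alternatives, between 14 and 18 were higher and between 2 and 5 lower. The 4 lower genes, looked up after their values were seen, were Klf2, Gadd45g, Npas4 and Sik1, and 2 were left without control library 2 or 3, MC903 library 3 or paeonol library 2 or 3. Egr3, Myc, Ier3, Ier2, Zfp36 and Gadd45b were among the 17, with log2 changes of 0.91, 0.79, 0.77, 0.70, 0.69 and 0.69.

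Of 24 other bZIP genes tested, which include partners and rivals of FOS and JUN, 13 were called higher and 4 lower in MC903 versus control, beside the same shares of all genes as above, and 11 higher and 7 lower under library totals. Jdp2, which pairs with JUN and represses AP-1, averaged 6.55 ± 1.16 CPM with paeonol, 25 ± 0.404 CPM in MC903 and 8.85 ± 0.742 CPM in control. Batf, an immune-cell AP-1 factor, had 1.27 ± 0.299, 3.05 ± 0.362 and 1.37 ± 0.349 CPM in the same order and was called higher in MC903 versus control and lower with paeonol against MC903. Maff, a small Maf protein, rose by 1.13 ± 0.16 in MC903 versus control, and its log2 change with paeonol against MC903 was -0.16 ± 0.15. Batf3 was not called in any comparison with TMM scaling and all libraries. With paeonol against MC903, 4 of the 24 were called higher and 9 lower, beside 15.3% and 14.3% of all genes. Looked up after the values were seen, Atf7, Mafa, Nfe2l1 and Cebpa were the 4 lower in MC903 versus control and also the 4 higher with paeonol against MC903. With paeonol against control, 10 were called higher and 2, Jdp2 and Mafa, lower, beside 16.3% and 14.5% of all genes. Library totals gave 6 and 4.

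Transcripts of the MAP kinase pathway were called in both directions. Of 38 tested, 13 were called higher and 8 lower in MC903 versus control, beside 23.0% and 23.8% of all genes, but 6 higher and 10 lower under library totals, and the median log2 change was 0.0996. Mapk3, which encodes ERK1, changed by -0.43 ± 0.08, and Mapk9, a JNK gene, by -0.38 ± 0.08. Mapk8 and Mapk14 had 0.17 ± 0.08 and 0.00 ± 0.06, and Srf, the serum response factor gene, and its cofactor gene Elk1 had 0.11 ± 0.11 and -0.13 ± 0.15. None of these 4 was called with TMM scaling, and under library totals Mapk14 was called lower (edgeR adjusted p = 0.0252). With paeonol against MC903, 7 were called higher and 4 lower, beside 15.3% and 14.3% of all genes, and Mapk3 had 0.45 ± 0.08. These counts were 9 and 3 under library totals, 7 and 2 without MC903 library 3 and 6 and 2 without paeonol library 2. With paeonol against control the calls were 12 higher and 5 lower, beside 16.3% and 14.5% of all genes. Under library totals they were 4 and 9.

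Among 17 other MAP kinase phosphatases and feedback inhibitors, 8 were called higher and 3 lower in MC903 versus control. The shares of all genes were 23.0% and 23.8%, and under library totals the list had 8 higher and 4 lower. Dusp5 and Dusp6, both ERK-induced and ERK-directed, rose by 2.04 ± 0.22 and 1.54 ± 0.17. Dusp6 averaged 35.4 ± 6.74 CPM with paeonol, 79.2 ± 16.5 CPM in MC903 and 27.2 ± 2.65 CPM in control. Dusp5 averaged 30.1 ± 10, 35.8 ± 4.90 and 8.69 ± 1.31 CPM in the same order, and was not called with paeonol against MC903 except without paeonol library 3 (edgeR adjusted p = 0.016). Dusp10, which acts on p38 and JNK, had a log2 change of -1.29 ± 0.25 in MC903 versus control. With paeonol against MC903, 4 of the 17 were called higher and 5 lower, beside 15.3% and 14.3% of all genes. Looked up after their values were seen, the 4 were Dusp4, Dusp10, Dusp14 and Spry1, and the 5 were Dusp2, Dusp6, Dusp7, Spred3 and Errfi1. The 4 became 2 without MC903 library 2 or 3 or paeonol library 1 or 3.

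Genes described as AP-1 targets showed wide changes. This list, like the others, was chosen with earlier results of these data known, and AP-1 activity was not tested. Of 33 tested, 22 were called higher and 3 lower in MC903 versus control, beside 23.0% and 23.8% of all genes. The median log2 change was 1.24. Mmp13, a collagenase, averaged 121 ± 77.2 CPM with paeonol, 499 ± 165 CPM in MC903 and 6.30 ± 1.25 CPM in control. The stromelysin Mmp3 averaged 50.1 ± 4.98, 175 ± 5.91 and 70.5 ± 4.22 CPM in the same order, and Plaur, the urokinase receptor, 7.46 ± 0.935, 29.8 ± 4.16 and 10.4 ± 3.09 CPM. Mmp9 and the EGF receptor ligand Hbegf rose by 2.63 ± 0.40 and 1.24 ± 0.24. The cornified envelope genes Ivl and Lor were lower, at -0.85 ± 0.21 and -2.33 ± 0.31. With paeonol against MC903, 16 were called lower and 4 higher, beside 14.3% and 15.3% of all genes, with a median of -1.10. Ivl and Lor were among the 4, at 2.11 ± 0.21 and 2.79 ± 0.32. The Mmp13 call there, -2.04 ± 0.52, ended without MC903 library 2 (edgeR adjusted p = 0.0576), MC903 library 3 (0.0806) or paeonol library 2 (0.0888), and in the fit of 2 groups (0.0688). The Hbegf call, -0.82 ± 0.24, ended without MC903 library 2 or 3 or any paeonol library (edgeR adjusted p between 0.051 and 0.102), and without the expression filter (0.0512). With paeonol against control, 14 were called higher and 3 lower, beside 16.3% and 14.5% of all genes. The counts were 13 and 6 under library totals and 12 and 1 without paeonol library 3.

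**Figure D4:**
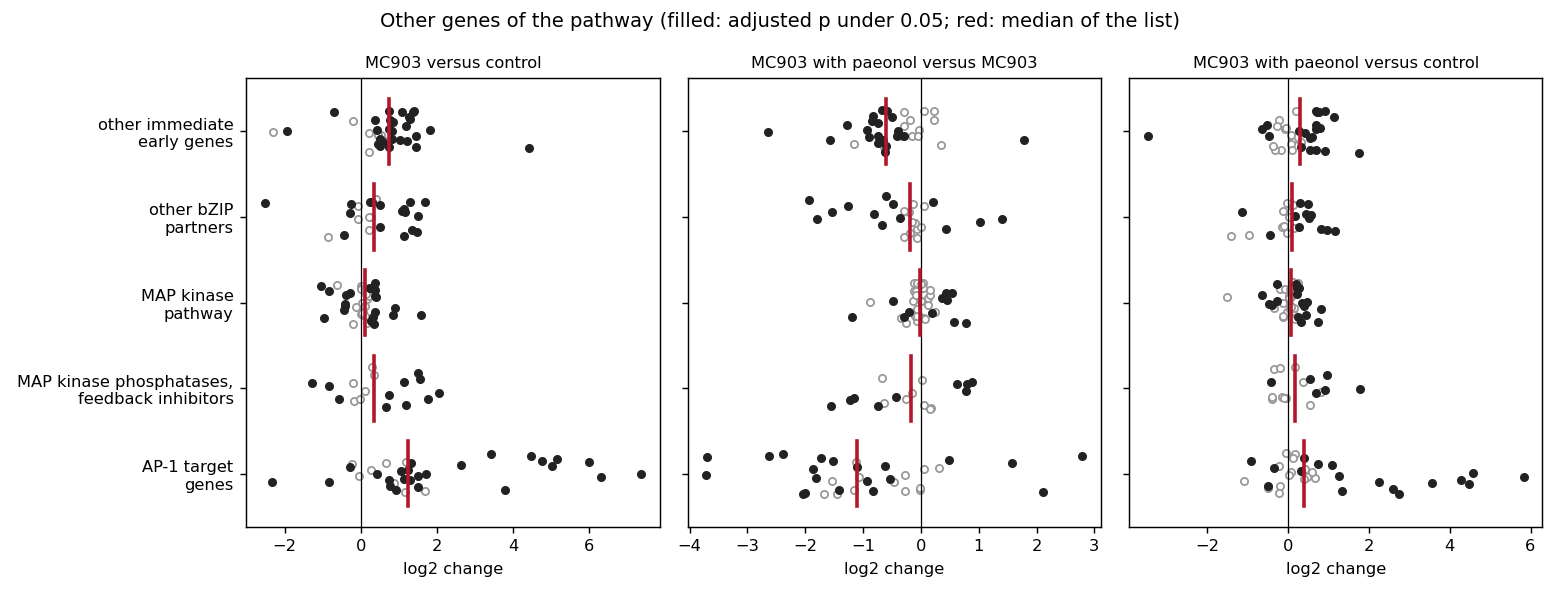
Log2 change of each gene in 5 lists of the pathway, in MC903 versus control, MC903 with paeonol versus MC903 and MC903 with paeonol versus control; filled points were called and the red line is the median of the list. The medians of other immediate early genes (0.736) and AP-1 targets (1.24) lie to the right in MC903 versus control and to the left (-0.596 and -1.10) with paeonol against MC903, while those of the MAP kinase pathway are 0.0996 and -0.0172.

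Likeness of profile was measured as the root mean square difference of centred log2 CPM over the 9 libraries, for 12339 named genes averaging 2 or more on that scale. By this measure the gene nearest to Junb was Gars, a glycyl-tRNA synthetase gene, at 0.07. It averaged 200 ± 28.3 CPM with paeonol, 257 ± 13.8 CPM in MC903 and 93.9 ± 5.86 CPM in control. Dbf4 and Rcn1 followed at 0.10 each. Nearest to Fos were Elf3, an epithelial ETS factor gene, at 0.39, Adap2 at 0.42 and Mthfd2 at 0.43. Nearest to Fosl1 were Lce3d, a late cornified envelope gene, at 0.50, Sh2d5 at 0.53 and the ligand gene Nrg1 at 0.57. Fos and Fosl1 had no neighbour as close as those of Junb. Their pooled within-group SD was larger too, at 0.60 and 0.85 against 0.19 for Junb, and such spread adds to the distance. How close the neighbours lie is therefore not comparable between these members.

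Markers of several other cell types moved beside these transcripts, but not every list moved as 1. Beside the counts below, 23.0% of all genes were called higher and 23.8% lower in MC903 versus control. With paeonol these shares were 15.3% and 14.3% against MC903, and 16.3% and 14.5% against control. Monocyte and macrophage markers were called higher in MC903 versus control for 4 of 4 and lower with paeonol against MC903 for 4 of 4, and summed to 147 to 212 CPM with paeonol, 411 to 485 CPM in MC903 and 253 to 263 CPM in control. The fall with paeonol was called for all 4 under every alternative. The rise was called for 2 of 4 under library totals, where Adgre1 had 0.40 and Csf1r 0.17 (edgeR adjusted p = 0.164 and 0.29). The Adgre1 call also ended without the expression filter (0.077), without control library 1 or 3, any MC903 library or paeonol library 2, and the Csf1r call without control library 2 or 3 or MC903 library 1 or 2 (edgeR adjusted p between 0.0504 and 0.125). Skeletal muscle markers were lower in MC903 versus control for 5 of 5, and summed to 1030 to 1470 CPM with paeonol, 711 to 977 CPM in MC903 and 2110 to 3340 CPM in control. In that comparison cartilage and adipocyte markers were also lower for 3 of 3 each, and fibroblast markers lower for 3 of 4 and higher for 1. For adipocytes 2 of 3 were lower without control library 2 or 3 or MC903 library 1 or 3. The 1 higher fibroblast marker, Pdgfra, lost its call under library totals and without control library 1 or 3 or MC903 library 2. Endothelial markers were lower with paeonol for 3 of 3, both against MC903 and against control. They summed to 79.5 to 114 CPM with paeonol, 161 to 182 CPM in MC903 and 146 to 178 CPM in control. Against MC903, 2 of 3 were lower under library totals, in the fit of 2 groups, and without control library 1 or 3, any MC903 library or paeonol library 2 or 3. Of 4 neutrophil markers tested only Cxcr2 was called, higher in all 3 comparisons. Its call with paeonol against MC903 ended without the expression filter (edgeR adjusted p = 0.0541). In MC903 versus control, T cell markers were higher for 2 of 4 and lower for 1, and mast cell markers higher for 1 of 3. With paeonol against MC903, 1 T cell and 1 mast cell marker were lower, the latter not under library totals. No marker of these lists was at 0 in all libraries. Heat shock genes, which tissue handling can induce together with Fos and Jun, had 5 of 10 higher and 1 lower in MC903 versus control, 5 and 3 under library totals, and 4 higher and 5 lower with paeonol against MC903. With paeonol against control, 8 of 10 were higher and 0 lower, beside 16.3% and 14.5% of all genes. Library totals gave 6 and 1 there. Hspa1b averaged 166 ± 1.33 CPM with paeonol, 111 ± 5.17 CPM in MC903 and 118 ± 16.4 CPM in control. The mitochondrially encoded genes summed to 37100 to 44700 CPM with paeonol, 61800 to 65800 CPM in MC903 and 43100 to 54200 CPM in control. The part of these cell types, of handling and of RNA quality in the changes of the members was not tested.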

How the data were processed

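Ear RNA of 9 libraries was analysed, 3 per group. Per the labels' protocols, libraries came from oligo(dT)-selected RNA and carried a dUTP strand mark. The tools HISAT2 2.0.4, StringTie 1.3.4d and cutadapt, and the build GRCm38, are named per the submitters' processing notes. What each tool did, and with which annotation and strand option, was not given there. The deposited values are whole numbers, used as estimated counts as they stand and not scaled between libraries. Per library, 1.90 to 2.23 times as many genes hold the value 4 as hold a neighbouring value, so 1 fragment may give several counts.

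All libraries were fitted in edgeR 4.0.16 (R 4.3.3), with filterByExpr (minimum count 10, minimum total 15), TMM factors 0.942 to 1.09 and a robust quasi-likelihood fit. P-values were two-sided and adjusted over 21925 genes, and standard errors were derived from the F value. DESeq2 1.42.0 was an alternative. Lengths, coordinates and symbols came from GENCODE M21. The members and gene lists were chosen with earlier results of these data known. The genes named are the 10 members, a fixed set from the pathway lists, the members of small called sets (looked up after their values were seen), and the 3 nearest profiles of Fos, Junb and Fosl1. The list gene Ddit3 matched more than 1 feature and was left out.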

Additional observations from a re-analysis of the deposited data

How the results depend on the processing

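Each comparison was refitted with DESeq2, DESeq2 size factors, library totals, no expression filter, a mean CPM of at least 1, counts divided by 4, fits of 2 groups, the replicate number as a block and each library left out. The genes called numbered 9012 to 10809 in MC903 versus control, 5065 to 7287 in MC903 with paeonol versus MC903 and 5216 to 7527 in MC903 with paeonol versus control, against 10259, 6502 and 6765 as reported. Members called numbered 6 to 8, 4 to 6 and 3 to 5. In all, 3 directions turned, all of changes that were not called, and the cause was not tested: Jun with paeonol against MC903 was -0.03 without paeonol library 3 (up to 0.20 with other libraries left out), Fosb with paeonol against control was -0.17 without paeonol library 1 (up to 0.49), and Jund with paeonol against control was -0.10 under library totals. Titles number the libraries 1 to 3 in each group, but same-numbered libraries deviated together with correlations of only -0.0113 to 0.04, and a library was nearest its own number in 6 of 18 cases. With that replicate block 10104, 6348 and 6673 genes were called, and Fos with paeonol against MC903 was no longer called (-1.54, edgeR adjusted p = 0.0882).

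Coding length in place of exon length kept the sign of every share difference. It moved the difference in Fos share to 11.9 points in MC903 versus control and -9.02 points with paeonol versus MC903, against 24.3 and -16.1. For Fosl2 these were -11.5 and 9.62 points, against -24.3 and 17.4. Fosb in MC903 versus control was -2.25 points, against -3.58, and Jund -23.4, against -27.3. Jun was -4.29, 1.79 and -2.50 points in the 3 comparisons, against -1.93, 0.769 and -1.16. Depth limits Fosl1 most among the members, with 11 to 43 estimated counts in control libraries. Because a fragment may give several counts, fewer fragments may lie behind these values.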
